A study of Homo sapiens with 58 samples.

Results

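A set of 10 genes that encode factors of RNA silencing and mRNA decay were followed as RNA targets of HuR, the RNA-binding protein encoded by ELAVL1, in a human hepatocellular carcinoma line. They were taken by name from the deposited table of CLIP peaks: the argonautes AGO1, AGO2 and AGO3, the GW182 proteins TNRC6A, TNRC6B and TNRC6C, the deadenylation scaffold CNOT1, the decapping factors DDX6 and DCP2, and the exonuclease XRN1. After repeated lines were dropped, the 10 genes held 632 of 387214 peaks and were 10 of 13836 genes named in the table. Their peaks held 17005 of 7887093 tags, or 0.216% of all tags in peaks. A tag is a sequenced RNA fragment that was crosslinked to HuR.

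The libraries came from Huh-7.5 cells that had either a mock treatment or 45 min of sodium arsenite at 0.5 mM, a treatment that stops translation and drives stress granules. Wild-type cells, with no APEX reaction, were fractionated into nucleus and cytoplasm, with 3 libraries for each fraction and treatment. The other 46 libraries came from lines that carry APEX, a peroxidase that biotinylates nearby proteins, with the APEX reaction run: APEX-NLS in the nucleus, APEX-NES in the cytoplasm and APEX-G3BP1 at the stress-granule protein G3BP1, written G3BP here. Input libraries (2 per treatment for NLS and NES, 4 mock and 5 arsenite for G3BP) had the HuR immunoprecipitation alone, and enriched libraries (4 per treatment for NLS and NES, 6 mock and 7 arsenite for G3BP) also had a streptavidin capture. Every cell was UV crosslinked, HuR was captured with antibody 3A2 and RNase I was used at more than 1 dilution. Whether each APEX line is 1 clone, and whether replicate libraries are separate cultures, is not given, so the p-values below measure the spread between libraries, which may be technical.

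Argonautes carry microRNAs to target transcripts and are bound by GW182 proteins, which recruit the CCR4-NOT complex, built on CNOT1, to shorten the poly(A) tail. The helicase DDX6 joins CCR4-NOT to the decapping machinery, DCP2 removes the cap, and XRN1 degrades the decapped RNA from its 5′ end. HuR binds U-rich and AU-rich elements in introns and 3'UTRs and is known to stabilise many of the mRNAs it binds, so these genes are factors of silencing and decay that are themselves transcripts HuR can hold.

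One member peak fell inside a sequence window that could be read, and it is shown because it lies at the transcript start, apart from the 3'UTR and intron peaks that hold most tags. It is a TNRC6B 5'UTR peak at chr22:40044838-40044858 on the plus strand, with 11 tags over 7 libraries. The letters are RefSeq's for GRCh38.p14, 5′ to 3′, and capitals mark the run of 3 T, the longest run of T in the peak.
TNRC6B 5'UTR peak: TTTggggtccccgtgctgctg
Of its 21 letters, 14 are G or C, 7 are T and 0 are A. In the table a peak's end is 20 nt past its start, and whether the table counts positions from 0 or from 1 is not stated.

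Tags in peaks ran from 235471 to 673322 per fraction library, from 1353 to 484305 per input library and from 519 to 86419 per enriched library, with 16 libraries below 10000. Values are given in CPM, tags per 1000000 of the library total. Of 9 hepatocyte markers 7 had tags (AFP the most, APOA1 and TTR at 0), with a summed level of 656 to 2522 CPM over the 12 fraction libraries. The mean of this sum was lower after arsenite in both fractions, 1001 against 2199 CPM in the cytoplasm and 681 against 1164 CPM in the nucleus, and its part in the arsenite differences of the members was not tested. Means of AFP, ALB, FGB and SERPINA1 were lower in both fractions, while TF was higher in the cytoplasm and APOB and APOH in the nucleus. Of 6 markers of other lineages CD3E, COL1A1, COL1A2 and KRT5 were at 0, and the list summed to 0 to 5.46 CPM. MALAT1, a nuclear RNA, had 2149 to 3304 CPM over all 12 fraction libraries, a range that did not set the nuclear ones apart. NEAT1, another nuclear RNA, had means of 413 CPM in nuclear mock and 539 CPM in nuclear arsenite libraries against 125 and 232 CPM in the cytoplasmic ones. All fraction libraries belong to set JL0380, so fractionation and that set cannot be told apart. In these libraries a difference in tags can come from HuR binding or from the amount of the RNA, and fewer cells and less RNA per cell cannot be told apart.

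By RefSeq's GRCh38.p14 annotation AGO1 (ENSG00000092847) lies at chr1:35869761-35930532 and AGO3 (ENSG00000126070) beside it at chr1:35930718-36072500, both on the plus strand. TNRC6B (ENSG00000100354) lies at chr22:40044834-40335808 on the plus strand and DDX6 (ENSG00000110367) at chr11:118747763-118791744 on the minus strand. The others are AGO2 (ENSG00000123908) on chromosome 8, TNRC6A (ENSG00000090905) and CNOT1 (ENSG00000125107) on chromosome 16, TNRC6C (ENSG00000078687) on chromosome 17, DCP2 (ENSG00000172795) on chromosome 5 and XRN1 (ENSG00000114127) on chromosome 3. Every member peak lies inside the bounds of its own gene.

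Pooled over all 58 libraries, the 165 3'UTR peaks of the members held 10298 tags, 60.6% of the members' tags, against 23.8% for all peaks in the table. All peaks include classes in which the members have none, so these shares, and those of the intron class below, are of unlike wholes. TNRC6B and DDX6 held 6768 of these tags. The share varied between groups: in nuclear mock libraries 33.7% to 36.3% of the members' tags lay in 3'UTR peaks and 57.0% to 58.5% in the intron class, and in cytoplasmic mock libraries 71.7% to 78.1% and 18.8% to 25.0%. The 416 peaks of the intron class held 5843 tags, 34.4% against 41.8%. That class included 138 peaks with 2236 tags that the table annotates CDS_Retained_intron, a label for sequence annotated both as coding and as retained intron. The median member peak held 23 tags in 3'UTRs, where the median over all genes was 16, and 10 tags in introns, where it was also 10.

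The genes differed in where their tags lay. Pooled over all libraries, AGO2 had 96.4% of its tags in 3'UTR peaks, DDX6 92.3%, AGO1 85.5%, TNRC6B 77.6% and DCP2 75.1%. This order holds for the pool only, since the shares differed between groups, as given below for the fractions. In CNOT1 3.29% and in TNRC6A 7.94% lay in 3'UTR peaks, while 87.5% and 80.9% lay in the intron class. AGO3 (33.7% in 3'UTR peaks), XRN1 (34.4%) and TNRC6C (36.9%) lay between. The remaining classes were small: AGO3 had 161 tags over repeat elements and 140 in the class Other, and CNOT1 had 134 in coding sequence. A 15-tag CNOT1 peak of the snoRNA class, chr16:58548503-58548523, lies within SNORA46, a small nucleolar RNA inside CNOT1, so its tags may belong to either RNA.

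Peaks of equal length allow levels to be compared between genes. The member peak with the most tags over all libraries was in the DDX6 3'UTR, chr11:118751407-118751427 on the minus strand, with 1208 tags, 38.7% of all DDX6 tags. It lies 3644 nt upstream of the RefSeq gene end. The next by tags were in the TNRC6B 3'UTR at chr22:40324305-40324325 on the plus strand, with 902 tags at 11483 nt upstream of the end, and in the AGO1 3'UTR at chr1:35926957-35926977 on the plus strand, with 488 tags at 3555 nt upstream. This order follows the deeper libraries: by mean CPM the TNRC6B peak was above the DDX6 peak in 12 of 16 groups and below it in 4, among them both arsenite fraction groups. The top peaks of the other genes held 65 to 182 tags: CNOT1 182 (CDS_Retained_intron), AGO3 152, TNRC6C 126, AGO2 103, DCP2 86, TNRC6A 77 (intron) and XRN1 65 (CDS_Retained_intron).

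The genes also differed in how far their 3'UTR tags were spread. In CNOT1, which had 3 3'UTR peaks, the top peak held 72.9% of the 3'UTR tags, and in TNRC6C it held 51.4%. Over all libraries the top peak held 47.3% in AGO1, 41.9% in DDX6 and 23.2% in TNRC6B, where 3 of 29 peaks made up more than 50% of the tags. The order of AGO1 and DDX6 turned with the group: the mean share was 60.4% against 33.4% in cytoplasmic mock and 26.9% against 53.1% in cytoplasmic arsenite libraries. Over all libraries XRN1 (12.9%), AGO2 (13.9%) and DCP2 (19.0%) had the flattest profiles by the share of the top peak. This order also turned with the group: in cytoplasmic mock the mean share was 26.6% for DCP2 and 12.2% for AGO3. The 3'UTR peaks of XRN1, AGO3 and TNRC6A span 111414, 88844 and 28055 nt of genome, and which transcripts they belong to is not given in the table.

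Comparing the 2 fractions asks on which transcripts HuR sits in each compartment. In mock-treated cells the argonautes had more 3'UTR tags in the cytoplasm. The AGO1 3'UTR sum was 16.0, 18.2 and 18.3 CPM in the nuclear and 58.5, 80.5 and 92.8 CPM in the cytoplasmic libraries, and the groups did not overlap. AGO2, the argonaute that can cut its target, had 24.8, 16.4 and 13.5 CPM in the nuclear against 50.0, 51.9 and 69.6 CPM in the cytoplasmic libraries. AGO3 had 14.6, 16.4 and 21.2 CPM against 42.5, 48.9 and 43.2 CPM, also apart.

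In the GW182 family TNRC6B had 74.3, 83.6 and 64.7 CPM in its 3'UTR in the nuclear and 228, 232 and 243 CPM in the cytoplasmic mock libraries. Each cytoplasmic library was above every nuclear one. Of the decapping factors, DDX6 showed the widest gap: 18.9, 30.0 and 23.2 CPM in the nuclear against 153, 205 and 199 CPM in the cytoplasmic libraries. DCP2 had 2.91, 0 and 13.5 CPM against 12.8, 25.5 and 27.4 CPM, and nuclear replicate 3 lay inside the cytoplasmic range.

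In limma's test of gene sums, 6 of 10 members were lower in the nuclear fraction in the 3'UTR, beside 53.1% of 6090 genes tested, so the count is close to the background. The difference, nuclear minus cytoplasmic on the log2(CPM + 2.28) scale, was -2.85 ± 0.20 (SE) for DDX6 (limma adjusted p = 3.49e-08), a 7.73-fold difference of the mean CPM. It was -1.98 ± 0.21 for AGO1 (adjusted p = 2.91e-06), -1.64 ± 0.15 for TNRC6B (adjusted p = 5.92e-07), -1.56 ± 0.24 for AGO2 (adjusted p = 0.000105) and -1.27 ± 0.22 for AGO3 (adjusted p = 0.000274). DCP2 gave -2.02 ± 0.53 (limma adjusted p = 0.00685), and its call was lost without nuclear replicate 1 (adjusted p = 0.0937) or cytoplasmic replicates 2 (0.159) or 3 (0.100), over a range of 0.000397 to 0.159. The members' median was -1.42 and that of all 3'UTR sums -0.98. TNRC6A, TNRC6C, CNOT1 and XRN1 had differences of -0.77, -0.61, -0.98 and -0.92 that did not pass.

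**Figure D1:**
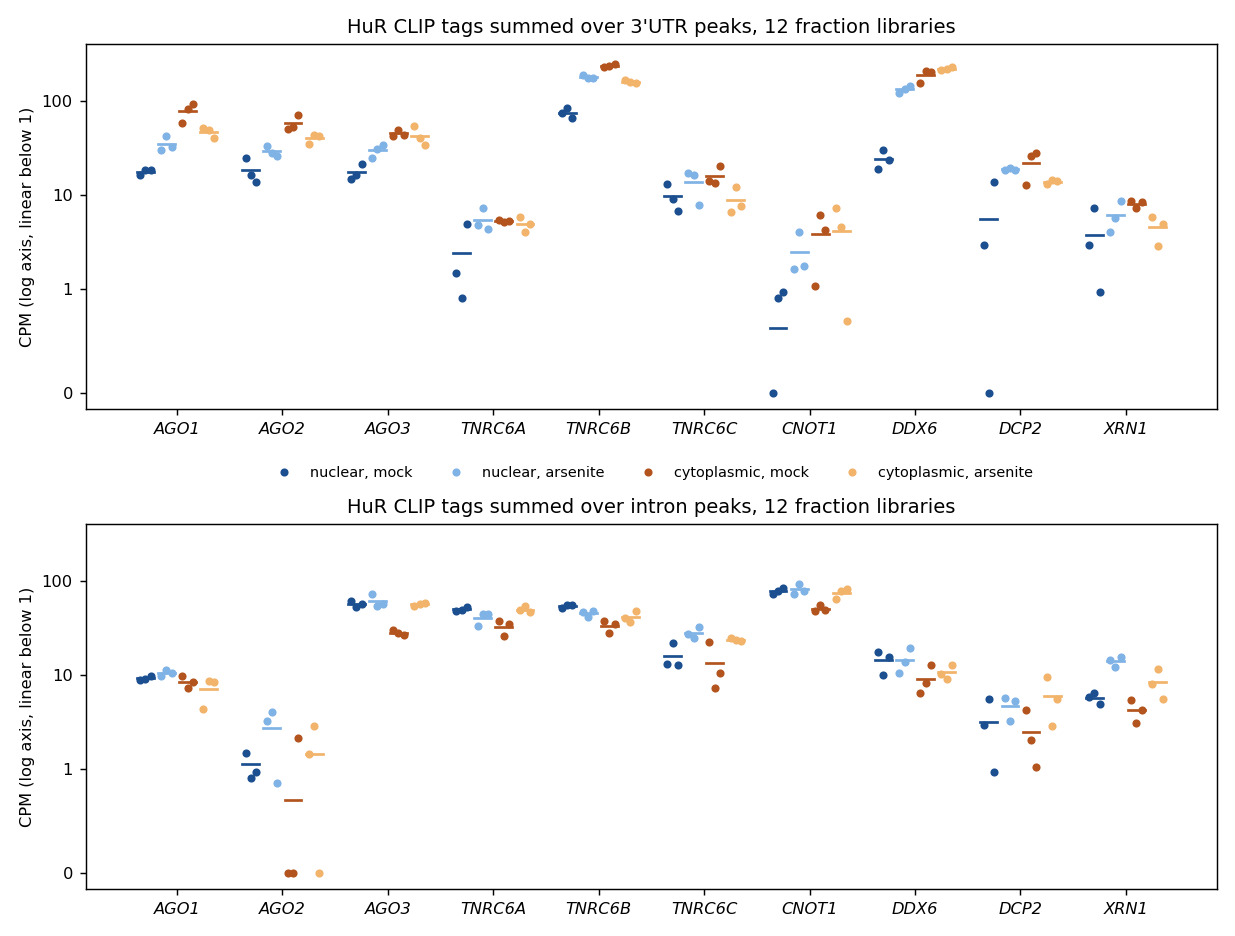
HuR CLIP tags summed over the 3'UTR peaks (top) and intron-class peaks (bottom) of each gene, in CPM on a log axis that is linear below 1, in the 12 fraction libraries; points are libraries, short lines the means of 3. DDX6 and TNRC6B 3'UTR sums are lowest in the nuclear mock libraries, at 18.9 to 30.0 and 64.7 to 83.6 CPM, and the AGO3 intron sum is lowest in the cytoplasmic mock libraries, at 26.4 to 29.8 CPM.

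The intron class ran the other way. AGO3 had 61.2, 52.7 and 57.0 CPM of intron tags in the nuclear and 29.8, 27.5 and 26.4 CPM in the cytoplasmic mock libraries. CNOT1 had 71.4, 77.3 and 83.0 CPM against 47.9, 55.0 and 48.5 CPM, with no overlap. Of 10 members 4 were higher in the nuclear fraction, beside 28.1% of 7707 intron sums: AGO3 by 0.97 ± 0.19 (SE, limma adjusted p = 0.000757), TNRC6B by 0.66 ± 0.19 (0.0120), CNOT1 by 0.59 ± 0.17 (0.0114) and TNRC6A by 0.59 ± 0.20 (0.0286). The members' median of 0.43 was near the 0.48 of all intron sums. The TNRC6A call was lost without any 1 of 5 libraries, the TNRC6B call without nuclear replicate 2 or 3 and the CNOT1 call without nuclear replicate 3 (limma adjusted p of 0.0517 to 0.104, 0.0504 to 0.0523 and 0.0648). Summed apart, AGO3 was higher in both annotations (intron 0.98 and CDS_Retained_intron 1.04), TNRC6B in CDS_Retained_intron (0.87), and CNOT1 and TNRC6A in intron peaks (0.65 and 0.64).

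At single peaks, limma called 14 of 104 tested member 3'UTR peaks lower in the nuclear fraction in mock cells, beside 13.1% of all 3'UTR peaks tested, and 0 higher. Of the 14, 8 were in DDX6, 3 in TNRC6B and 1 each in AGO1, AGO3 and DCP2. Of these, 3 (2 in DDX6 and the one in DCP2) had 0 nuclear tags and 10 to 13 cytoplasmic tags, so they passed the filter through the cytoplasmic libraries alone. The AGO3 peak had a tag in 1 nuclear library, and some other DDX6 and TNRC6B peaks in 2. Those too reached the filter only with their cytoplasmic tags, so the count of 14 gives no support of its own. The largest difference was at the top AGO1 peak, which had 5.83, 6.36 and 4.83 CPM in the nuclear and 37.2, 39.7 and 63.3 CPM in the cytoplasmic libraries, -2.59 ± 0.29 (SE, limma adjusted p = 0.00164). The DDX6 peak at chr11:118751942-118751962 gave -2.58 ± 0.40 (0.00876) and the top DDX6 peak -2.49 ± 0.29 (0.00221). The number of calls was 33 without nuclear replicate 1, 3 without nuclear replicate 2 or 3 or cytoplasmic replicate 1, and 0 without cytoplasmic replicate 2 or 3. The 13.1% belongs to the full fit, and the share of all peaks called in these smaller fits is not given here. Between these settings the adjusted p of the AGO1 peak reached 0.0753, that of the DDX6 peak at 118751942 reached 0.164 and that of the top DDX6 peak 0.0940.

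After arsenite the fractions lay closer. DDX6 had 121, 134 and 145 CPM in its 3'UTR in the nuclear and 209, 217 and 228 CPM in the cytoplasmic libraries, still apart. TNRC6B had 187, 175 and 176 CPM against 165, 157 and 155 CPM, with the nuclear libraries now the higher ones. AGO1 had 29.6, 42.4 and 32.1 CPM against 50.5, 48.3 and 40.3 CPM, which overlapped.

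Of the 10 members only the DDX6 3'UTR sum was called between the fractions after arsenite, lower in the nuclear fraction by limma, beside 11.2% of 6591 3'UTR sums. Its difference was -0.70 ± 0.10 (SE, limma adjusted p = 1.79e-05), and it kept its call without any 1 of the 6 libraries. The TNRC6B difference was 0.17 ± 0.10 (adjusted p = 0.369) and that of AGO1 -0.41 ± 0.17 (0.161). The members' median was -0.11 and that of all genes -0.17. In the intron class 0 of 10 sums of members were called, beside 1.82% of 8419 intron sums higher and 0.998% lower in the nucleus.

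Of 407 tested member peaks 2 were called between the fractions after arsenite, both lower in the nucleus. The top DDX6 peak, 61.7, 69.6 and 72.8 CPM in the nuclear against 118, 114 and 115 CPM in the cytoplasmic libraries, gave -0.75 ± 0.13 (SE, limma adjusted p = 0.0192), 1 of 133 member 3'UTR peaks beside 0.766% of all. The TNRC6A intron peak at chr16:24780759-24780779 had 0.801, 2.40 and 0.866 CPM against 7.22, 8.53 and 8.35 CPM and gave -1.53 ± 0.29 (adjusted p = 0.0410), 1 of 246 beside 0.0315%. This peak rests on 5 nuclear and 37 cytoplasmic tags. Neither call was kept without any 1 of the 6 libraries, with adjusted p of 0.122 to 0.346.

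In the cytoplasmic fraction arsenite was accompanied by lower 3'UTR sums of AGO1 and TNRC6B. AGO1 went from 58.5, 80.5 and 92.8 CPM in mock to 50.5, 48.3 and 40.3 CPM, a difference of -0.69 ± 0.19 (SE, limma adjusted p = 0.0150). TNRC6B went from 228, 232 and 243 to 165, 157 and 155 CPM, -0.55 ± 0.14 (adjusted p = 0.0106). In both genes every arsenite library was below every mock library. These were 2 of 10 members, beside 20.6% of 6685 3'UTR sums lower after arsenite, with a median of -0.51 for members and -0.30 for all. The DDX6 libraries after arsenite (209, 217 and 228 CPM) were all above those in mock (153, 205 and 199 CPM), but the difference of 0.24 did not pass (limma adjusted p = 0.310).

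Intron sums of 4 of 10 members were higher in the cytoplasm after arsenite, beside 15.8% of 8068 intron sums, with a median of 0.56 for members and 0.29 for all. AGO3 went from 29.8, 27.5 and 26.4 to 54.1, 56.3 and 57.7 CPM, 0.95 ± 0.18 (SE, limma adjusted p = 0.000916), which brought it to the level of its nuclear libraries. TNRC6C rose by 0.85 ± 0.29 (adjusted p = 0.0459), TNRC6A by 0.58 ± 0.19 (0.0406) and CNOT1 by 0.53 ± 0.17 (0.0345). Summed apart, AGO3 and TNRC6C passed in intron peaks (1.15 and 0.88), CNOT1 passed in CDS_Retained_intron peaks (0.69) and TNRC6A passed in neither (limma adjusted p of 0.105 and 0.104).

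Calls in this cytoplasmic comparison leaned on single libraries. Of the 6 called sums, 1 was left without arsenite replicate 1, 2 or 3 and 2 without mock replicate 2 or 3, and AGO3 in the intron class was kept in each of the 6 fits, with limma adjusted p of at most 0.0268 over its alternatives. Over theirs, the adjusted p reached 0.132 for AGO1, 0.0850 for TNRC6B, 0.269 for TNRC6C, 0.172 for TNRC6A and 0.166 for CNOT1.

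At single peaks 2 of 125 tested member 3'UTR peaks fell in the cytoplasm, beside 2.69% of all 3'UTR peaks. The top AGO1 peak went from 37.2, 39.7 and 63.3 to 12.995, 18.2 and 6.96 CPM, -1.75 ± 0.33 (SE, limma adjusted p = 0.0474). The DDX6 peak at chr11:118749329-118749349 went from 18.1, 27.5 and 19.0 to 5.78, 5.12 and 3.48 CPM, -1.74 ± 0.28 (adjusted p = 0.0233). No member peak was called without any 1 of the 3 mock libraries (0 calls), and 26, 23 and 13 were called without arsenite replicate 1, 2 or 3, most of them higher after arsenite. The share of all peaks called in these smaller fits is not given here, so the counts show nothing particular to the members. Over its alternatives the adjusted p reached 0.280 for the AGO1 peak and 0.245 for the DDX6 peak.

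In the nuclear fraction arsenite was accompanied by higher 3'UTR sums. DDX6 went from 18.9, 30.0 and 23.2 CPM to 121, 134 and 145 CPM, 5.55-fold in the mean, and TNRC6B from 74.3, 83.6 and 64.7 to 187, 175 and 176 CPM. Neither gene's groups overlapped. DCP2 went from 2.91, 0 and 13.5 to 18.4, 19.2 and 18.2 CPM, AGO1 from 16.0, 18.2 and 18.3 to 29.6, 42.4 and 32.1 CPM and AGO3 from 14.6, 16.4 and 21.2 to 24.8, 30.4 and 33.8 CPM, also without overlap. AGO2 had 32.8, 28.0 and 26.0 CPM after arsenite, and its difference of 0.64 ± 0.22 did not pass (limma adjusted p = 0.0900).

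Limma called 5 of 10 members higher in the 3'UTR in this comparison, beside 16.0% of 6001 3'UTR sums, with a median of 0.75 for members and 0.39 for all. Over all libraries every member but CNOT1 had more 3'UTR tags than the median gene, which had 64. By these tags TNRC6B ranked 38 and DDX6 72 of 7619 genes. The part of tag depth in the members' share of calls and in their median was not tested. The differences, arsenite minus mock, were 2.38 ± 0.16 (SE) for DDX6 (limma adjusted p = 6.42e-07), 1.87 ± 0.50 for DCP2 (0.0284), 1.25 ± 0.12 for TNRC6B (6.99e-06), 0.89 ± 0.20 for AGO1 (0.00955) and 0.70 ± 0.21 for AGO3 (0.0457). DDX6 and TNRC6B kept their calls over 13 alternatives each, with adjusted p of at most 0.0303 and 0.0345. The intron sums of XRN1 and TNRC6C were also higher, by 1.03 ± 0.27 (0.0247) and 0.77 ± 0.23 (0.0464), 2 of 10 beside 1.30% of 8073 intron sums. XRN1 went from 5.83, 6.36 and 4.83 to 14.4, 11.999 and 15.6 CPM, and summed apart it passed in CDS_Retained_intron peaks (1.01) but not in intron peaks (limma adjusted p = 0.468). TNRC6C passed in neither annotation on its own (0.0564 in intron and 0.688 in CDS_Retained_intron peaks).

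Among the 20 tested nuclear sums of members 7 were called, and 2 without arsenite replicate 2 or 3, 3 without arsenite replicate 1 and 4 without mock replicate 1, these counted anew in each fit. The DCP2 difference was 1.20 without mock replicate 2 (limma adjusted p = 0.0909) and ran from 0.93 to 2.66 over its alternatives. The limma adjusted p reached 0.304 for DCP2, 0.0784 for AGO1, 0.181 for AGO3, 0.111 for XRN1 and 0.238 for TNRC6C over their alternatives. With each library centred on the median of the tested sums, AGO3, TNRC6C and XRN1 were not called.

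The top peaks of DDX6 and TNRC6B were the member peaks called higher in the nucleus after arsenite, 2 of 105 tested 3'UTR peaks beside 1.20% of all. The DDX6 peak went from 10.2, 9.09 and 7.72 to 61.7, 69.6 and 72.8 CPM, 2.64 ± 0.21 (SE, limma adjusted p = 0.000400). The TNRC6B peak went from 14.6, 11.8 and 12.6 to 40.0, 35.996 and 39.9 CPM, 1.43 ± 0.22 (adjusted p = 0.0224). The count was 15 without nuclear arsenite replicate 3, 1 without mock replicate 2 or 3 and 0 without arsenite replicate 1 or 2 or mock replicate 1. Here too the share of all peaks called in the smaller fits is not given. The adjusted p reached 0.135 for DDX6 and 0.269 for TNRC6B over the alternatives.

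**Figure D2:**
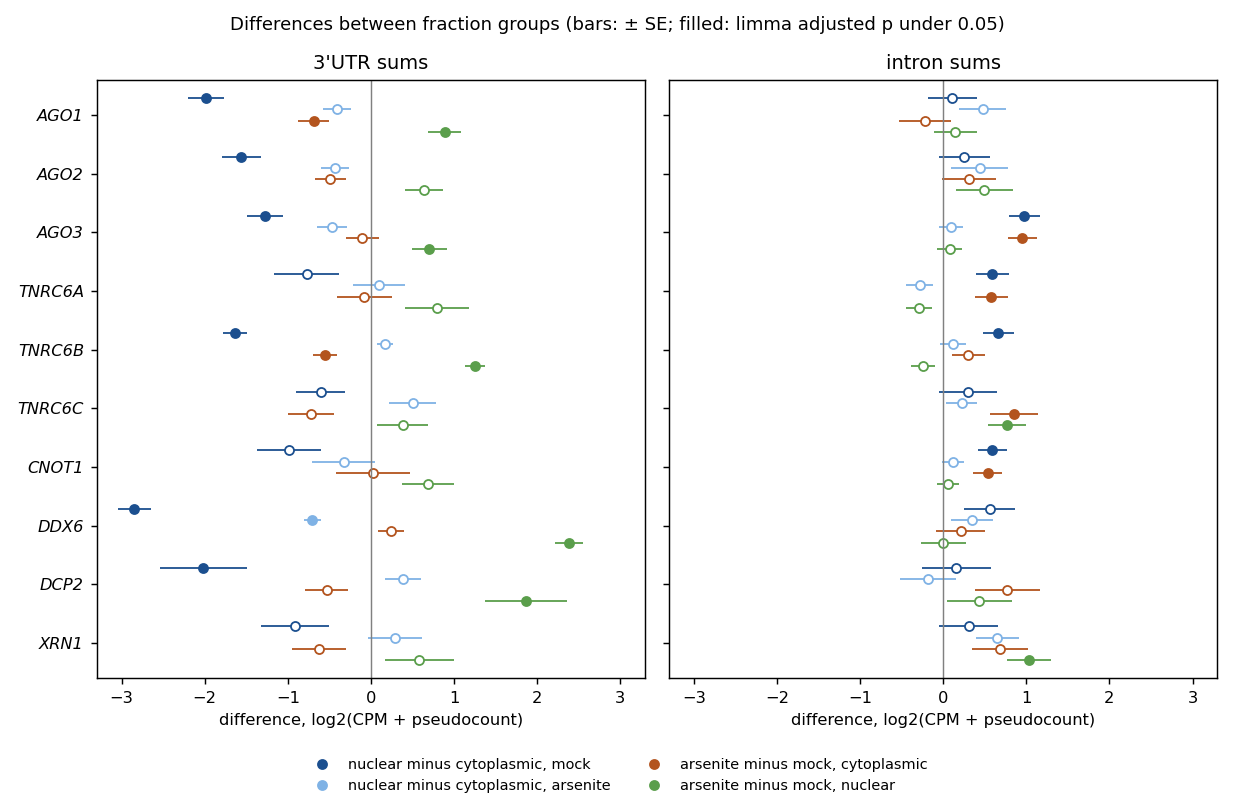
Differences of the summed tags between fraction groups on the log2(CPM + 2.28) scale, for 3'UTR sums (left) and intron-class sums (right); bars are ± SE and filled points passed limma's adjusted p of 0.05. In the 3'UTR panel DDX6 runs from -2.85 (nuclear minus cytoplasmic, mock) to 2.38 (arsenite minus mock, nuclear), and in the intron panel AGO3 stands at 0.97 for nuclear minus cytoplasmic in mock and at 0.95 for arsenite minus mock within the cytoplasm.

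Whether the change with arsenite differed between the fractions was tested directly as an interaction over the 12 libraries, which are the same libraries as in the comparisons above. The 3'UTR change was larger in the nucleus for 6 of 10 members, beside 26.3% of 7282 3'UTR sums, with a median of 1.17 for members and 0.63 for all. Here too the part of the members' tag depth was not tested. The difference of the 2 changes, nuclear minus cytoplasmic, was 2.40 ± 0.49 (SE) for DCP2 (limma adjusted p = 0.000177), 2.14 ± 0.22 for DDX6 (1.31e-11), 1.80 ± 0.19 for TNRC6B (3.04e-11), 1.58 ± 0.28 for AGO1 (1.85e-05), 1.13 ± 0.30 for AGO2 (0.00404) and 0.80 ± 0.30 for AGO3 (0.0486). AGO3 lost its call in 15 of 19 alternatives (adjusted p of 0.0264 to 0.173), and the other 5 kept theirs in all 19. In the intron class AGO3 (-0.88 ± 0.25, 0.00914) and TNRC6A (-0.87 ± 0.27, 0.0153) had the lower nuclear change, 2 of 10 beside 11.7% of 9222 intron sums. TNRC6A lost its call without nuclear arsenite replicate 1 (0.0684), cytoplasmic mock replicate 2 (0.0561) or cytoplasmic arsenite replicate 2 (0.0531), in a range of 0.00436 to 0.0684.

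Of 157 tested member 3'UTR peaks 6 had a higher nuclear change, beside 2.46% of all 3'UTR peaks. The largest were the top AGO1 peak (2.78 ± 0.50, SE, limma adjusted p = 0.000148), the DDX6 peak at 118749329 (2.69 ± 0.54, 0.00165) and the top TNRC6B peak (2.44 ± 0.36, 5.81e-07). The others were the top DDX6 peak (1.74), the TNRC6B peak at chr22:40332903-40332923 (2.35) and the AGO2 peak at chr8:140520999-140521019 on the minus strand (2.20). Without nuclear arsenite replicate 3 there were 2 calls and without cytoplasmic arsenite replicate 2 there were 3. The AGO1 peak lost its call without the former (adjusted p = 0.0885, range 1.79e-07 to 0.0885).

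In some genes peaks within 1 3'UTR differed in how their shares moved, and this is described here without a test, for peaks chosen after their values were seen. The shares of a peak among its gene's 3'UTR tags were apart between cytoplasmic mock and arsenite libraries, in either direction, for the top peaks of 5 of 6 members with at least 10 3'UTR tags in each of those libraries, beside 45.1% of 1720 genes. Over all their peaks with at least 20 tags it was 18 of 50, beside 39.2% of 5762. In the nuclear libraries it was 2 of 5 top peaks beside 31.0% of 590 genes, and 5 of 21 peaks beside 30.2% of 1704, so separated shares were common among all genes. The top DDX6 peak held 26.4% to 37.3% of the gene's 3'UTR tags in the cytoplasmic mock libraries and 50.3% to 56.2% after arsenite. The DDX6 peak at 118749329 went the other way, from 9.52% to 13.4% in mock to 1.52% to 2.76%. Both pairs of ranges were apart, while the DDX6 3'UTR sum of the cytoplasm did not pass. In the nucleus the top DDX6 peak held 30.3% to 53.8% in mock and 50.3% to 51.8% after arsenite, which overlapped, and the peak at 118749329 held 8.33% to 15.4% and then 4.19% to 7.14%.

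In AGO1 the top peak held 49.4% to 68.2% of the 3'UTR tags in the cytoplasmic mock libraries and 17.2% to 37.6% after arsenite, whereas the rest of its 3'UTR had 30.5 ± 9.77 and 33.7 ± 3.71 CPM (SD, n = 3 each). In the nucleus the AGO1 peak did not fall in share, with 26.3% to 36.4% in mock and 27.0% to 49.1% after arsenite. The top AGO2 peak, chr8:140520683-140520703, went from 15.2% to 29.4% down to 6.25% to 10.0%, and in the nucleus from 14.3% to 23.5% down to 5.71% to 7.32%. In AGO3 the peak at chr1:36058700-36058720 rose from 7.32% to 16.7% up to 24.3% to 47.9%, and the peak at chr1:36062480-36062500 went from 10.4% to 39.0% down to 4.17% to 8.0%. In the nucleus both AGO3 peaks overlapped (22.2% to 40.0% and 28.2% to 32.3%, and 0% to 5.56% and 2.63% to 5.13%).

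In TNRC6B the top peak, near the start of the 3'UTR signal, held 25.4% to 29.0% of the 3'UTR tags in cytoplasmic mock and 17.5% to 21.5% after arsenite. The peak 106 nt upstream of the gene end, chr22:40335682-40335702, held 13.1% to 18.4% and then 24.5% to 31.4%. In the nuclear libraries the share of the top TNRC6B peak went the other way, from 14.1% to 19.6% in mock to 20.55% to 22.7% after arsenite. The top peaks of TNRC6C (30.8% to 53.8% in cytoplasmic mock and 33.3% to 45.5% after arsenite) and DCP2 (medians of 23.1% and 16.7%) had shares that overlapped.

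**Figure D3:**
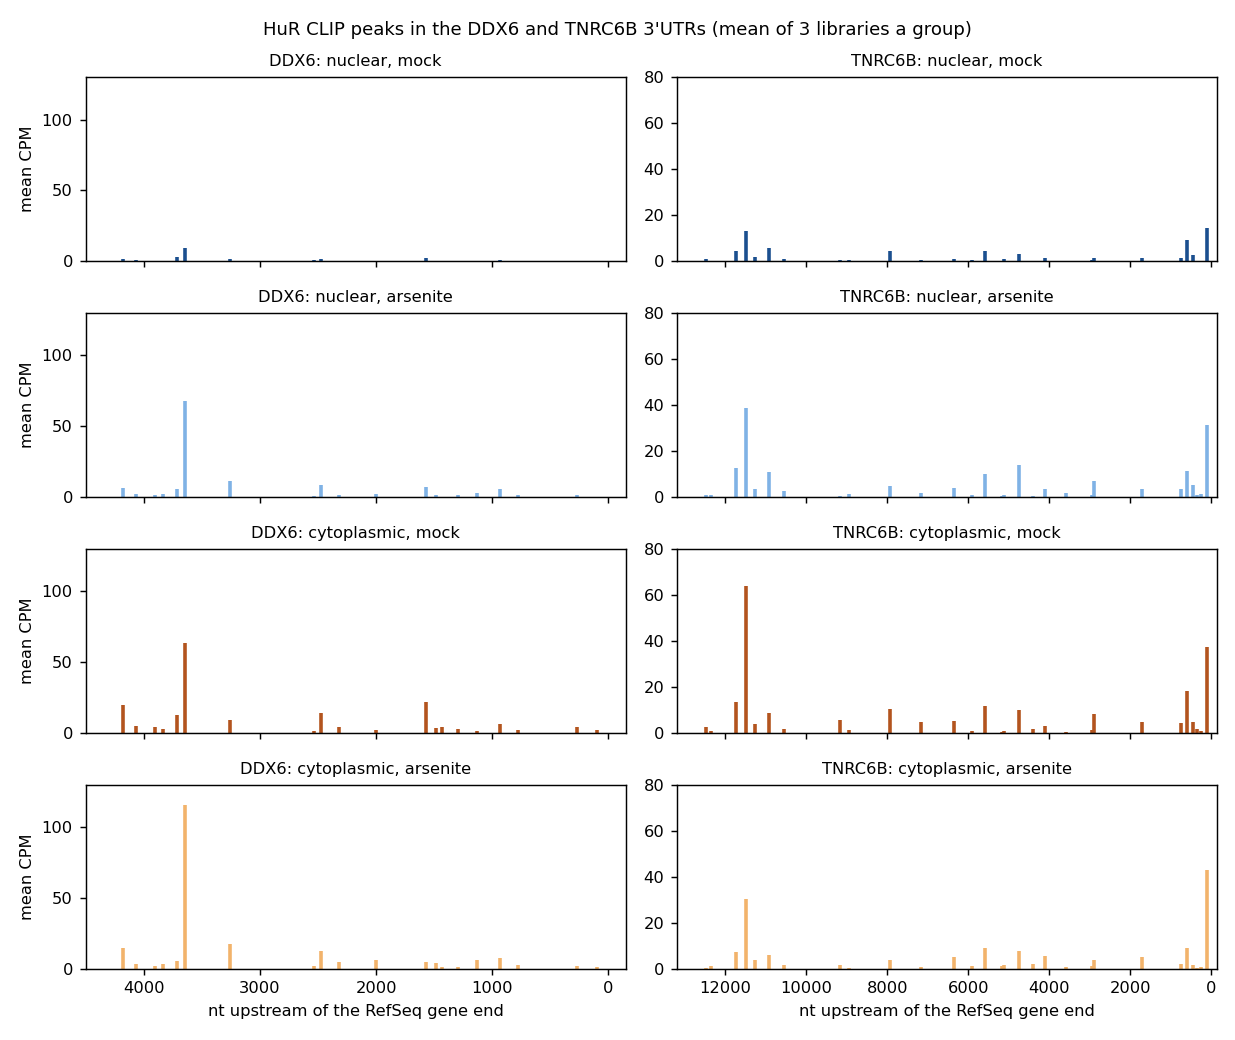
Mean CPM of 3 libraries at each 3'UTR peak of DDX6 (left, 20 peaks) and TNRC6B (right, 29 peaks) against the distance upstream of the RefSeq gene end, in nt; rows are the 4 fraction groups and the axes are the same within a gene. The DDX6 peak at 3644 nt stands at 9.01 CPM in nuclear mock and 115.6 CPM in cytoplasmic arsenite, and the TNRC6B peak at 11483 nt falls from 63.8 to 30.5 CPM in the cytoplasm while the one at 106 nt does not fall.

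The share of a gene's tags in 3'UTR peaks, out of its 3'UTR plus intron tags, does not depend on the library total. Of the members 8 had at least 10 such tags in each fraction library, and DCP2 and XRN1 did not. In mock cells 7 of the 8 had a lower share in every nuclear than in every cytoplasmic library, beside 68.1% of 2711 genes, and TNRC6C overlapped. DDX6 had 52.0%, 75.0% and 60.0% in the nuclear and 96.0%, 96.2% and 94.0% in the cytoplasmic libraries. TNRC6B had 59.3%, 60.5% and 54.0% against 85.9%, 89.4% and 87.5%, and AGO3 had 19.2%, 23.7% and 27.2% against 58.8%, 64.0% and 62.1%.

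After arsenite AGO1 and DDX6 were the members lower in every nuclear library, 2 of 8 beside 22.3%. DDX6 had 92.1%, 90.8% and 88.4% in the nuclear and 95.4%, 95.97% and 94.8% in the cytoplasmic libraries. TNRC6B had 80.1%, 81.1% and 78.7% against 80.3%, 81.2% and 76.6%, and AGO3 25.6%, 36.2% and 37.5% against 50.0%, 41.4% and 36.6%, which overlapped. The median over all 2711 genes, nuclear minus cytoplasmic, was -18.7 percentage points in mock and -1.74 after arsenite. Without nuclear arsenite replicate 3 the groups of 6 members were apart after arsenite, 4 lower and 2 higher in the nucleus, and without cytoplasmic arsenite replicate 3 those of 4 were. Fewer libraries are more easily apart in any gene. The share of all genes apart in these smaller splits is not given here, and the 22.3% is not their background.

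**Figure D4:**
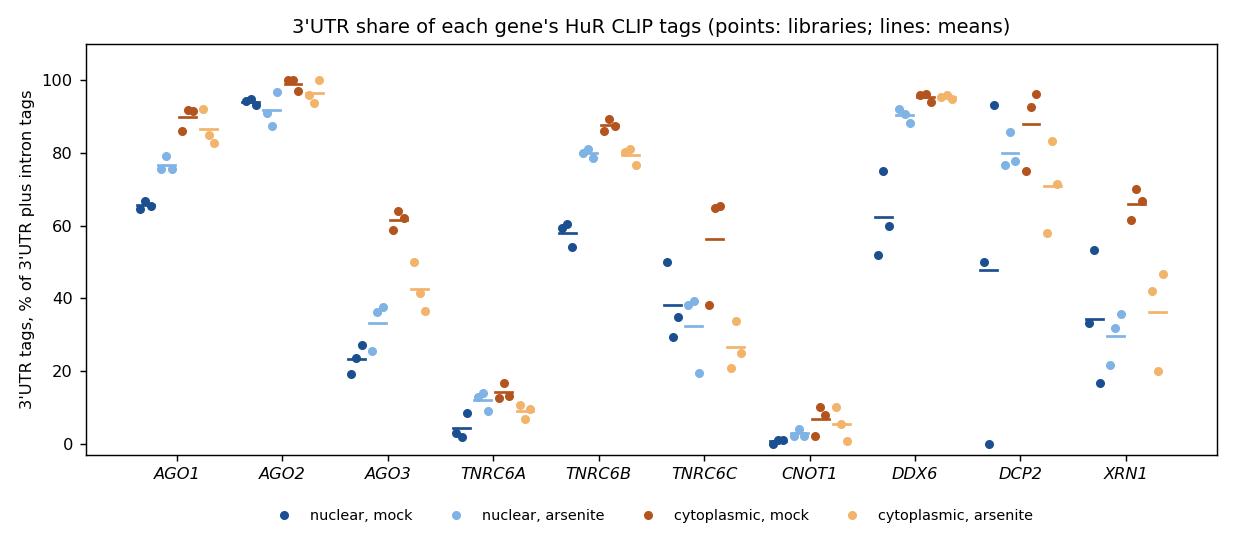
Percentage of each gene's 3'UTR plus intron tags that lay in 3'UTR peaks, in the 12 fraction libraries; points are libraries and short lines the means of 3. TNRC6B stands at 54.0% to 60.5% in nuclear mock and 76.6% to 89.4% in the other groups, while CNOT1 and TNRC6A stay at or below 16.7% in every library.

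In the APEX lines gene sums were tested with the library set as a covariate, and the enriched libraries held far fewer tags than the fraction libraries. Arsenite against mock called 0 of 12 member sums in NLS (0% of 4218 sums; 1 member at an unadjusted p under 0.05), 0 of 6 in NES (0% of 1297; 0 members unadjusted) and 0 of 10 in G3BP enriched libraries (0% of 2309; 1 member unadjusted), by limma and by edgeR. In the input libraries limma called 0 of 17 (0% of 8783; 4 members unadjusted) and edgeR called 5, all higher after arsenite, where it called 9.27% of the same sums. The TNRC6B 3'UTR sum in G3BP input was 0 to 61.7 CPM (median 51.6) in 4 mock and 77.4 to 235 CPM (median 131) in 5 arsenite libraries, which did not overlap. It was 84.0 and 26.3 CPM in mock against 146 and 51.6 CPM in NLS input and 74.3 and 24.8 against 158 and 97.9 CPM in NES input, higher after arsenite in each library set. DDX6 had 0 to 50.6 CPM in mock and 38.7 to 117 CPM in arsenite G3BP input. The 50.6 CPM is 1 tag, in mock replicate 1. Over all members G3BP input mock replicates 1 and 4 and arsenite replicate 1 held 6, 2 and 9 tags. Their values therefore rest on few tags. How many of all genes were apart between these input groups was not counted.

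Between the enriched lines, differences of members rested on few tags. NLS against NES in mock cells gave higher intron sums in NLS for 2 of 4 tested members, beside 27.2% of 1708 intron sums. TNRC6A had 14.8, 41.0, 3.78 and 4.19 CPM in NLS and TNRC6B 69.0, 41.0, 5.67 and 4.19 CPM, and both were at 0 tags in all 4 NES libraries. Both sums could be tested only through their NLS tags, 13 for TNRC6A and 25 for TNRC6B. Over the pooled libraries these were 9.59 and 18.4 CPM, and a floor of 3 tags in the 4 NES libraries was 9.74 CPM, so the bound was at least 1.89-fold higher in NLS for TNRC6B and no fold can be given for TNRC6A. Limma called both (adjusted p = 0.0239 and 0.0236) and edgeR neither, and since they entered the test through the line where they are high, the count gives no support of its own. Each call was lost without any 1 of the 4 NES libraries or NLS replicate 1, and for TNRC6B also without NLS replicate 2, with adjusted p of 0.0554 to 0.133 and, over all alternatives, up to 0.774.

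After arsenite the same comparison gave higher intron sums in NLS for AGO3 and CNOT1, 2 of 5 tested members beside 20.3% of 1897. Each of these sums had tags in 1 of the 4 NES libraries, 5 tags for AGO3 and 2 for CNOT1, so both passed the filter through their NLS tags, and the count gives no support of its own. AGO3 had 55.5, 44.6, 7.64 and 11.6 CPM in NLS and 0, 0, 0 and 8.85 CPM in NES, 2.87 ± 0.90 (SE, limma adjusted p = 0.0384). CNOT1 had 69.3, 35.7, 11.5 and 8.71 CPM against 0, 0, 0 and 3.54 CPM, 3.13 ± 0.89 (adjusted p = 0.0243). Within JL0388 and JL1024 the differences were 4.51 and 1.22 for AGO3 and 4.51 and 1.75 for CNOT1, and edgeR called neither. Both calls were lost without any 1 of the 4 NLS libraries or NES replicate 3, with adjusted p of 0.0596 to 0.131 and, over all alternatives, up to 0.654.

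G3BP against NES gave 0 of 5 member sums in mock (0.149% of 1346 sums called; 0 members at an unadjusted p under 0.05; edgeR 0). After arsenite 1 of 5 tested 3'UTR sums of members was higher in G3BP, that of TNRC6B, beside 6.68% of 1213. In the 2 sets that hold both lines TNRC6B had 316, 392, 154 and 105 CPM in G3BP and 183, 78.7, 4.14 and 19.5 CPM in NES, which overlapped over the sets and were apart within each. The difference was 2.49 ± 0.63 (SE, limma adjusted p = 0.0176), 1.53 in JL0388 and 3.45 in JL1024, and edgeR called it too. The median was 1.68 for the 5 members and 1.38 for all 3'UTR sums. The call was lost without G3BP replicate 4 (0.0534) or 5 (0.149) or NES replicate 2 (0.115) or 3 (0.0728), in a range of 0.0041 to 0.448. The difference was 1.36 with median centring (limma adjusted p = 0.448), 1.48 with tags in peaks as total (0.389) and 3.72 without the libraries under 10000 tags in peaks (0.260), and the call was lost in each. The G3BP libraries of set JL0361, which holds no NES library, had 0, 57.9 and 99.2 CPM after arsenite and 0 and 85.9 CPM in mock.

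**Figure D5:**
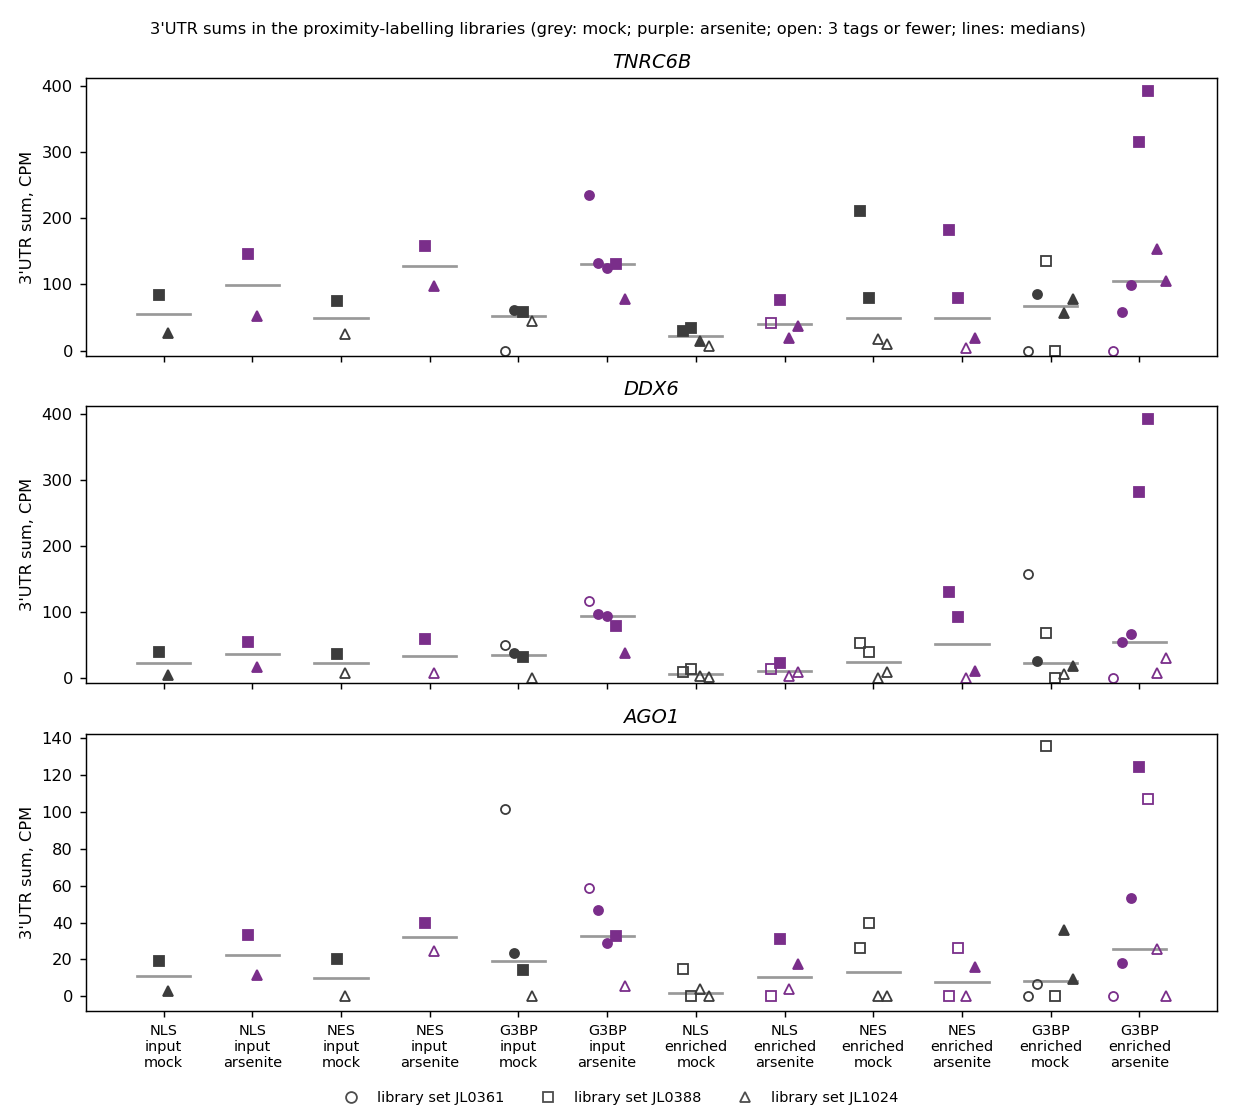
3'UTR sums of TNRC6B, DDX6 and AGO1 in CPM in the input and enriched libraries of the APEX lines; each point is a library, its shape the library set, open points hold 3 tags or fewer, and grey lines are group medians. In G3BP input the TNRC6B sum is 0 to 61.7 CPM in mock and 77.4 to 235 CPM after arsenite. Many points of the enriched libraries and some of the G3BP input libraries rest on 3 tags or fewer.

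A list of 68 other genes of these pathways (microRNA processing, deadenylation, decapping, exonucleases and nonsense-mediated decay), of which 61 had peaks, was counted beside the members. In mock cells 23 of 43 tested 3'UTR sums of the list were lower in the nucleus, beside 53.1% of all 3'UTR sums, and 0 higher. The list's median was -1.16: CNOT7, a deadenylase of CCR4-NOT, by -3.08 (limma adjusted p = 2.93e-07), the P-body protein LSM14A by -2.68 (6.85e-08) and TOB1, which recruits CCR4-NOT, by -2.42 (1.41e-05). Of 53 intron sums 13 were higher in the nucleus, beside 28.1% of all, led by XPO5, SMG6 and PATL1 (1.75, 1.56 and 1.26). After arsenite 4 of 47 3'UTR sums were lower in the nucleus, beside 11.2% (CNOT7, CNOT11 and LSM14A the largest), and 1 was higher, beside 1.38% (UPF2). Of 53 intron sums 2 were then higher in the nucleus, beside 1.82%, and 1 lower, beside 0.998%.

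In the cytoplasm 9 of 45 3'UTR sums of the list fell with arsenite (UPF2, LSM1 and LSM14B the largest, by -1.71, -1.51 and -1.43), beside 20.6% of all, while 9 of 51 intron sums rose, beside 15.8% (SMG6, XPO5 and TUT7 the largest), and CNOT9 fell, beside 1.38%. In the nucleus 13 of 42 3'UTR sums rose, beside 16.0%, and 0 fell, with a median of 0.53: for example BTG2 by 1.91 and CNOT6 by 1.77. In introns 0 of 55 rose, beside 1.30%, and 3 fell, beside 3.39% (DIS3, CNOT9 and XRN2). In the interaction 16 of 48 3'UTR sums were higher, beside 26.3%, and 0 lower (TOB1, UPF2 and LSM14B the largest). Of its 56 intron sums 8 were lower, beside 11.7% (SMG5, SMG6 and TOB2 the largest).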

How the data were processed

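HuR CLIP-seq libraries of Huh-7.5 cells were grouped by compartment, capture step and treatment from their titles, giving 16 groups, and the library set is the prefix of each description. The authors deposited 1 table of signal per peak and library, with peak class and gene name; the submitters' processing notes name Bowtie2, SAMtools, bedtools and HOMER and build GRCh38.p14, with no roles or versions. The divisor of the signal, duplicate removal, the treatment of reads that map to several places and the use of strand in counting are not given in the sources used here. Divided by the smallest value above 0 in its column, 100% of values came out whole within 0.1 tag, so tags and library totals (4662 to 2622677) were recovered and CPM computed. Intervals and limits from tags cover counting error only.

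Of 395471 lines, 8257 repeated lines were dropped, none of them a member's. For each gene, 3'UTR peaks and intron-class peaks were summed. Peaks (fraction libraries) and sums (all) were tested over the whole table with limma 3.58.1 (R 4.3.3; lmFit, eBayes with a trend) on log2(CPM + 2.28), the pseudocount being the typical worth of 1 tag (its median over the 58 libraries). Fold changes on that scale understate those of low genes. The number of libraries with a tag had to reach the size of the smaller group. Two-sided p-values were adjusted over all features tested (Benjamini-Hochberg, threshold 0.05); library set (and line, for input) was a covariate in the APEX lines. Each fit used only the groups compared, which share libraries between comparisons. Gene bounds come from RefSeq (GRCh38.p14), where all 10 genes matched.

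Alternatives were edgeR 4.0.16 (quasi-likelihood) on the recovered tags, other pseudocounts, no filter, tags in peaks as total, pairs within sampling noise counted once (5 of 32 pairs, all of enriched libraries), a replicate block, and leaving out each library; median centring, leaving out libraries under 10000 tags and splitting the intron class were added after seeing the data. Deviations of same-numbered fraction libraries had correlations of -0.0107 to 0.0406 in the sums. Counting noise in features of few tags can hide a pairing, so these values cannot exclude it. The labels name no pairing, so numbers were not taken as pairs in the main fit. The named peaks are each member's top peak and, per fraction comparison, at most 3 called higher and 3 lower by size of difference; the 6 other peaks named (1 each in AGO2, AGO3 and CNOT1 and 3 in TNRC6B) were chosen after their values were seen. A result of the pathway list that this rule would name is not reported here. The members and the lists were chosen with earlier results of these data known. Python 3.11.15, numpy 2.4.6, pandas 2.3.3 and matplotlib 3.10.9 were used. Peak sequences other than the one shown were not analysed here.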

Additional observations from a re-analysis of the deposited data

Results flagged for a closer look

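The change of the 3'UTR sums with arsenite differed between the fractions in a direct test (nuclear minus cytoplasmic, log2 scale, limma) by 2.40 for DCP2, 2.14 for DDX6, 1.80 for TNRC6B, 1.58 for AGO1, 1.13 for AGO2 and 0.80 for AGO3. In the intron class it differed by -0.88 for AGO3 and -0.87 for TNRC6A. The DCP2 value ran from 1.30 to 3.24 over its alternatives, and DCP2 had 16 nuclear mock tags with 1 library at 0. The call of the AGO3 3'UTR sum was lost in 15 of 19 alternatives. The same test at single 3'UTR peaks gave 2.78 at the AGO1 peak 35926957, 2.69 at the DDX6 peak 118749329, 2.44 at the TNRC6B peak 40324305, 2.35 at the TNRC6B peak 40332903, 2.20 at the AGO2 peak 140520999 and 1.74 at the DDX6 peak 118751407.

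Single enriched libraries stood far above the rest of their group. The AGO1 3'UTR sum was 135.5 CPM in G3BP enriched mock replicate 3, from 2 tags, where the next library had 35.9 CPM. The TNRC6B intron sum was 13.1 CPM in NES enriched arsenite replicate 2, from 1 tag, and the CNOT1 intron sum was 19.9 CPM in NES enriched mock replicate 2, also from 1 tag. In NES enriched arsenite replicate 4 the AGO3 intron sum was 8.85 CPM, from 5 tags, and the CNOT1 intron sum 3.54 CPM, from 2 tags. In each of these NES groups the other libraries were at 0. The limit used is one that chance passes in about 1 in 20 groups of normally spread values, and sums of a few tags are not such values.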

How the results depend on the processing

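In single sums and peaks 0 of the alternatives reversed a direction. Of called member peaks, nuclear against cytoplasmic in mock numbered 14 and 23 with no filter. After arsenite there were 2, and 0 with a pseudocount 4 times smaller and 1 each with edgeR, tags in peaks as total, the replicate block or median centring. For arsenite in the cytoplasm there were 2, and 6 with the smaller pseudocount or edgeR, 4 with no filter or tags in peaks as total, 5 with the replicate block and 1 with centring. For arsenite in the nucleus there were 2, and 4 with edgeR or no filter; the interaction gave 6, and 10 with centring. Of gene sums, arsenite in the nucleus gave 7, and 4 with the smaller pseudocount or centring. NLS against NES in mock gave 2, and 0 with a pseudocount 4 times larger, edgeR, no filter or centring; after arsenite it gave 2, and 0 with edgeR, tags in peaks as total, centring or without libraries under 10000 tags, and 1 with no filter or with pairs within sampling noise counted once. G3BP against NES after arsenite gave 1, and 0 with the smaller pseudocount, tags in peaks as total, pairs counted once or centring. Input gave 0, and 5 with edgeR and 1 without libraries under 10000 tags. The 3'UTR share after arsenite gave 2, and 1 with a minimum of 20 tags. Leaving out 1 library at a time gave 0 to 33 peaks between fractions in mock, 0 to 0 after arsenite, 0 to 26 for arsenite in the cytoplasm, 0 to 15 in the nucleus and 2 to 5 in the interaction. For sums it gave 7 to 11, 1 to 1, 1 to 8, 2 to 5 and 6 to 8 in the same order, 0 to 2 for NLS against NES in mock and again after arsenite, 0 to 1 for G3BP against NES after arsenite, and 0 to 0 for G3BP against NES in mock, input and arsenite in each enriched line. It gave 7 to 8 and 2 to 6 genes for the 3'UTR share in mock and after arsenite. These counts of members stand without the share of all features in the same fits. The replicate block moved no other count by over 1.5 times (11 sums between fractions in mock). Deviations of same-numbered libraries had correlations of -0.0171 to 0.0938 in sums, which cannot exclude pairing. In the APEX lines many member sums rest on 3 tags or fewer.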
